A study of Mus musculus with 80 samples.

Results

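Fibroblast growth factor signalling was followed through 10 genes in 12 expression tables of mouse embryonic stem (ES) cells. They are Fgf4 and Fgfbp1, which act outside the cell; Spry2, Spry4, Dusp4, Dusp6, Etv4 and Etv5, the feedback genes; and Braf and Dok2, a kinase and an adaptor of the same pathway set beside them. The genes were taken by symbol, and rows of one symbol were summed. All 10 were found throughout except in KO plus mutant replicate 2, which listed 9 and lacks Etv5. The tables together held 37890 gene symbols. The genes were selected on their ratios between these same libraries, so their values are a description and carry no test.

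The study profiled ES cells with altered SALL4 and SALL1, zinc finger factors of the spalt-like family, and its 68 samples of chromatin or modified DNA, out of 80, were not used here. There was 1 library of Sall4 KO given wild-type SALL4A (KO plus WT), and there were 2 each of Sall4 KO given a mutant SALL4A (KO plus mutant), of Sall4 KO (Sall4 delta/-) and of Sall4 heterozygous cells (Sall4 flox/-, here het). There was 1 library each of the Sall1/Sall4 double knockout (DKO, Sall1-/-/Sall4-/-), of the wild-type cells paired with the DKO (WT of DKO), of Sall1 KO (Sall1 delta/-), of Sall1 het (Sall1 flox/-) and of the wild-type TT2 line. The Sall4 het and KO cells thus share 1 null Sall4 allele, and the Sall1 het and KO cells share 1 null Sall1 allele. Replicate 1 libraries and those of KO plus WT, the DKO pair and the Sall1 pair are labelled C57BL/6J, replicate 2 libraries 129P2/OlaHsd (line E14.1), and TT2 an F1 of C57BL/6NCrlj and CBA/JNCrlj. All samples carry the same growth text, written for TT2: gelatin without feeder cells, in knockout serum replacement, dialysed fetal bovine serum and LIF. What drives the added SALL4A, which exons were deleted and whether a line is 1 clone are not given in the sources used here.

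In ES cells FGF4 is secreted and acts back on the same cells through FGF receptors, with heparan sulphate as a cofactor. The receptors signal through the adaptors FRS2 and GRB2, RAS, the RAF kinases and MEK to the kinase ERK, whose activity prepares ES cells to leave self-renewal. ERK in turn raises the RNA of its own brakes, among them the Sprouty proteins and the DUSP phosphatases, and of the ETS factors ETV4 and ETV5, so these RNAs are often read as a record of pathway output.

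Upstream sequence is shown for Dusp6, Fgfbp1 and Fgf4, the genes among the 8 FGF and feedback genes that were past 2-fold in at least 2 of the 7 library pairs described below. The sequences are from RefSeq on GRCm38.p6, the 250 bases before the annotated start, read 5′ to 3′ on the gene's strand. Capitals mark ATTGG, the CCAAT box read from the other strand.
Dusp6: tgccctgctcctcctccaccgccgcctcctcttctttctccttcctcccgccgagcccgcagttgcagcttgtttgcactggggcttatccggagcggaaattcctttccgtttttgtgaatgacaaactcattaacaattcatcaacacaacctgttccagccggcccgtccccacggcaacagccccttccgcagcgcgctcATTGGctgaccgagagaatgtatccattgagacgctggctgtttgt
Fgfbp1: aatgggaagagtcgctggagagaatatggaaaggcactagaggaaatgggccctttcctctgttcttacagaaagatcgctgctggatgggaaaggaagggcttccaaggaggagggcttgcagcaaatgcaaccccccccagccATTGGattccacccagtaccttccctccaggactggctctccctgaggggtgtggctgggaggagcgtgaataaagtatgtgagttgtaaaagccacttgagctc
Fgf4: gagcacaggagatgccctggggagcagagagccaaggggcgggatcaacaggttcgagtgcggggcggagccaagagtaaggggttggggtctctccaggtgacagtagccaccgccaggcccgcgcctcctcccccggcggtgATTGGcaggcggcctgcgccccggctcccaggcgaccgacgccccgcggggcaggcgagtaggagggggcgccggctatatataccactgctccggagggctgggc
The window of Dusp6 is chr10:99262981-99263230 on the plus strand, that of Fgfbp1 chr5:43981800-43982049 on the minus strand and that of Fgf4 chr7:144861136-144861385 on the plus strand. Counting the last base before the annotated start as position -1, the match begins at -46 in Dusp6, -105 in Fgfbp1 and -106 in Fgf4.

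Windows were found for 6 of the 10 genes, 7 windows in all because Etv5 has 2 starts; Spry4, Dusp4, Etv4 and Dok2 are named only. CCAAT on either strand was in 5 of the 7 windows, those of Dusp6, Fgfbp1, Fgf4 and both of Etv5, and in 33.8% of 32851 upstream windows of all genes. The ETS core CCGGAA, the letters bound by factors such as ETV4 and ETV5, and the AT-rich letters AATATT, each searched on both strands, were in none of the 7 windows and in 12% and 6.2% of all windows. TATAAA was in none of the 7 and in 12.4% of all. The CCAAT and TATAAA letters were chosen after these windows were seen, so nothing is read from their counts. The only ETS core found lay in Spry2, beginning at base 34 counted from the annotated start, and the 29 bases around it (chr14:105896770-105896798, minus strand) are shown with the core in capitals.
Spry2: aggtcatctatcCCGGAAtccgggagggt
These matches describe letters and not binding.

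The libraries were checked first. ES cell markers such as Pou5f1, Sox2 and Nanog were at 1 or more in every table that lists them. Sall4 RNA was 358 and 218 in the libraries labelled KO and 196 and 64.2 in those labelled het, and 109 in the library labelled DKO against 17.6 in WT of DKO, so it goes against these labels. In the libraries given SALL4A, Sall4 RNA was 97.4 in KO plus WT and 77.4 and 161 in KO plus mutant. Each of these lay below the KO library that it is set against here. The value covers the whole gene, so a direction given here always means the libraries by their labels. Sall1 RNA was 2.27 in DKO and 13.9 in WT of DKO, and 13.3 in the library labelled Sall1 KO against 21.8 in Sall1 het. The library labelled Sall1 KO thus held about as much Sall1 RNA as WT of DKO, and its label could not be checked from a whole-gene value. Values are FPKM or, in the 3 replicate 2 tables, RPKM, both per length of the gene and scaled to the mapped fragments or reads. Read totals cannot be had from them, so the depth is unknown and counting error is not given. Levels from tables of different units are set side by side but not averaged. The sum of values ran from 835259 to 7359936 per library, and the 10 highest entries held between 10.2% and 79.8% of it. Nothing in the labels says that libraries of a group came from separate cultures.

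Fgf4 encodes the ligand that ES cells make for themselves. It stood at 24.7 FPKM in KO plus WT, at 44.9 FPKM and 49.0 RPKM in KO plus mutant, at 23.4 FPKM and 23.1 RPKM in Sall4 KO and at 40.3 FPKM and 26.3 RPKM in Sall4 het. The mutant libraries lay above the KO plus WT, KO and het libraries, the KO libraries lay lowest in each replicate, and KO plus WT lay beside KO. It was 45.1 FPKM in DKO and 67.2 FPKM in WT of DKO, 46.9 FPKM in Sall1 KO and 40.9 FPKM in Sall1 het, and 8.47 FPKM in TT2. WT of DKO held the highest value of the 12 and TT2 the lowest.

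Ratios were taken only within pairs of one unit, after scaling by the median ratio, as log2(value + 1), a scale that shrinks the ratios of weakly expressed genes. For Fgf4 the log2 ratio of KO over het was -0.75 (replicate 1) and -0.23 (replicate 2). It was 1.19 and 1.33 for KO plus mutant over KO, and 0.31 for KO plus WT over KO. In that order these ratios lay at percentiles 8.2, 35.9, 94.7, 88.5 and 68.7 of genes reaching 5 in either library. The KO libraries stand in both kinds of ratio, so these are not independent. The KO plus WT and KO plus mutant replicate 1 tables were also made on other gene models than KO replicate 1, and the part of this in their ratios was not tested; the Fgf4 span is the same in all tables. The ratio of KO plus WT to KO plus mutant of replicate 1, which was added after the values were seen and does not involve KO, was -0.88, at percentile 1.5 of 8086 genes. The ratio of KO plus mutant to het, also added then, was 0.46 in replicate 1 and 1.03 in replicate 2.

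Fgfbp1 encodes a secreted carrier that frees FGFs from the matrix. Its level was 3.87 FPKM in KO plus WT, 7.07 FPKM and 4.77 RPKM in KO plus mutant, 18.1 FPKM and 27 RPKM in Sall4 KO, and 3.11 FPKM and 24.8 RPKM in Sall4 het. The het values of replicates 1 and 2 lay further apart than KO and het of replicate 2. Those het tables differ in unit and strain label, so this is not replicate spread alone. With values set side by side, the KO and het groups overlapped. The log2 ratio of KO over het was 2.23 in replicate 1 and 0.06 in replicate 2, at percentiles 98.9 and 57.3. All 3 add-back libraries lay below both KO libraries. The log2 ratios over KO were -1.76 for KO plus WT and -0.98 and -2.02 for KO plus mutant, at percentiles 4.9, 13.6 and 0.3.

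The largest Fgfbp1 ratio was in the double knockout. It was 33.6 FPKM in DKO and 0.924 FPKM in WT of DKO, a log2 ratio of 4.19 (18.2-fold on this scale), at percentile 99.6 of 8621 genes. Sall1 KO with 7.05 FPKM and Sall1 het with 7.93 FPKM lay between them, with a log2 ratio of -0.15, and TT2 had 2.19 FPKM. The DKO pair is 1 library against 1, so this ratio has no replicate check. Beside it, the keratins Krt8 and Krt18, markers of trophoblast and other simple epithelium, were at 63.9 and 73.2 FPKM in DKO and at 4.79 and 4.49 FPKM in WT of DKO. They held most of the summed level of 7 trophoblast markers, 141 FPKM in DKO and 11.9 FPKM in WT of DKO, of which 3 were at 1 or more in each library and none at 0. The defining factor Cdx2 was at 0.0726 FPKM in DKO and 0.0558 FPKM in WT of DKO, and Elf5 at 0.0504 FPKM in DKO and 0.0756 FPKM in WT of DKO, both near 0. Eomes was at 2.20 FPKM in DKO and 2.14 FPKM in WT of DKO, and Gata3 and Hand1 were at 0.781 and 0.869 FPKM in DKO and at 0.283 and 0.108 FPKM in WT of DKO. The epiblast markers summed to 58.8 FPKM in DKO and 17.8 FPKM in WT of DKO. Dnmt3b held most of both sums, at 36.1 FPKM in DKO and 9.59 FPKM in WT of DKO. All 3 of them at 5 or more in either library, Dnmt3b, Lef1 and Sox3, were over 2-fold higher in DKO. Lef1 and Sox3 reached 5 only in DKO. Otx2 was lower in DKO, at 3.02 FPKM against 4.27 FPKM in WT of DKO. Pou3f1 was at 1.3 FPKM in DKO and 1.24 FPKM in WT of DKO. In bulk RNA, more cells of a type and more RNA per cell cannot be told apart. The part of such cells in the Fgfbp1 value was not tested.

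**Figure D1:**
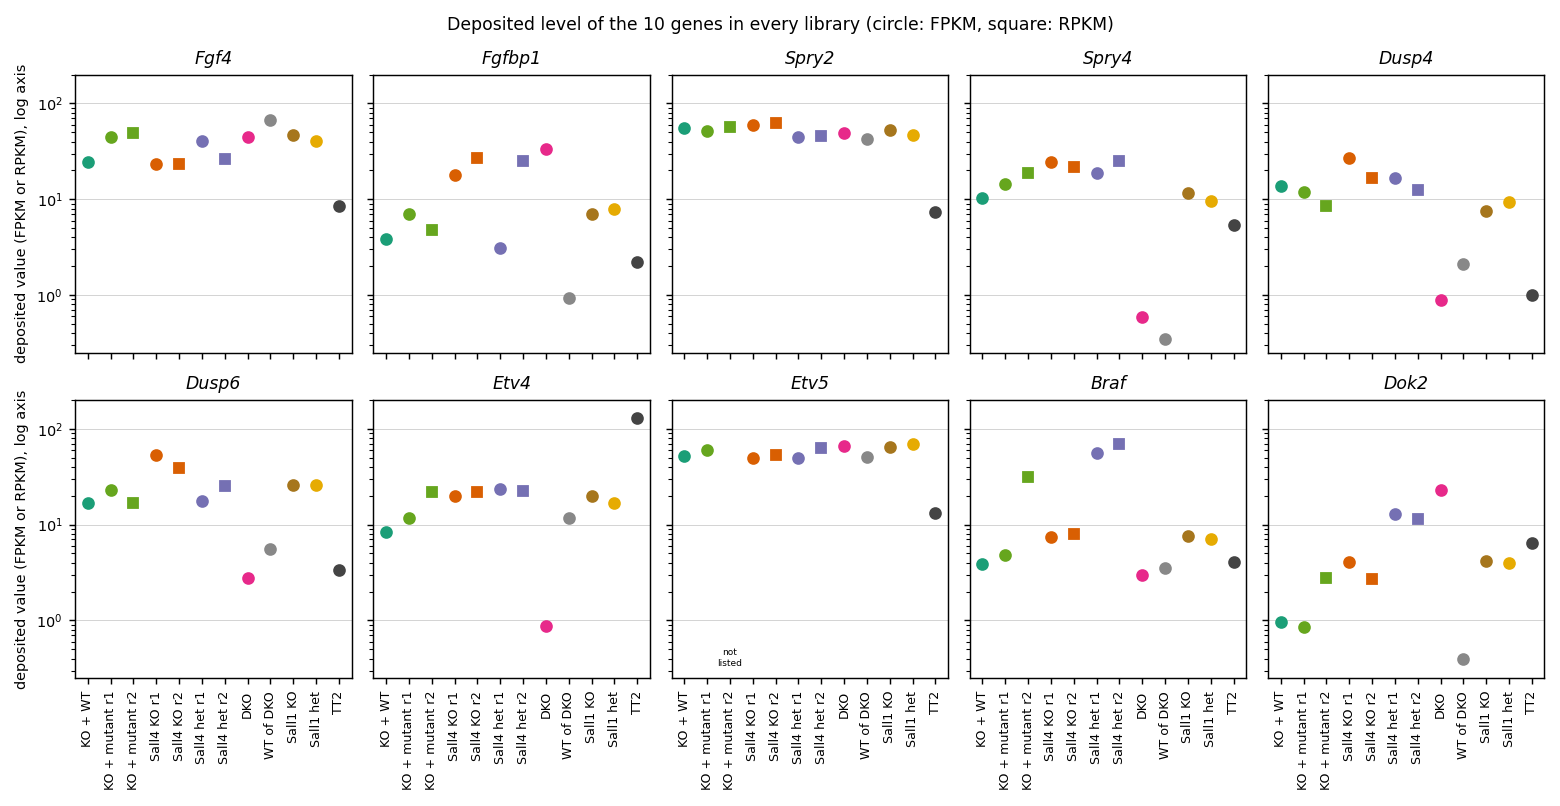
Deposited level of each of the 10 genes (log axis, FPKM as circles, RPKM as squares) in the 12 libraries, r1 and r2 being replicates 1 and 2. Spry4, Dusp4, Dusp6 and Etv4 sit below 3 FPKM in DKO, and Spry4 and Dusp4 also in WT of DKO. Dusp6 and Etv4 are at 5.58 and 11.6 FPKM in WT of DKO. Fgf4, Spry2 and Etv5 stay above 40 FPKM in both DKO and WT of DKO, and Braf sits above 50 only in the 2 Sall4 het libraries.

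Spry2 and Spry4 encode Sprouty proteins, which block receptor signalling upstream of ERK. Spry2 was at 55.4 FPKM in KO plus WT, 51.3 FPKM and 56.4 RPKM in KO plus mutant, 59.8 FPKM and 62.1 RPKM in Sall4 KO, and 44.7 FPKM and 45.2 RPKM in Sall4 het. Both KO libraries lay above both het libraries, with log2 ratios of 0.43 and 0.39, and the groups did not overlap. In the add-back pairs its ratios over KO were between 0.06 and 0.15 and turned negative, to between -0.22 and -0.11, when values were left unscaled. Spry2 was at 48.7 FPKM in DKO, 42.1 FPKM in WT of DKO, 52.3 FPKM in Sall1 KO and 47.0 FPKM in Sall1 het, and at 7.43 FPKM in TT2.

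Spry4 was at 10.4 FPKM in KO plus WT, 14.4 FPKM and 19.0 RPKM in KO plus mutant, 24.7 FPKM and 21.8 RPKM in Sall4 KO, and 18.9 FPKM and 25.1 RPKM in Sall4 het. KO and het overlapped, and the ratio was 0.38 in replicate 1 and -0.25 in replicate 2. KO plus WT had the lowest value of these 7 libraries, with a log2 ratio of -0.94 over KO. In DKO and WT of DKO Spry4 was nearly silent, at 0.595 and 0.349 FPKM, while Sall1 KO had 11.6 FPKM, Sall1 het 9.67 FPKM and TT2 5.39 FPKM.

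Dusp4 and Dusp6 encode phosphatases that switch off ERK, DUSP4 in the nucleus and DUSP6 in the cytoplasm. Dusp6 was at 16.7 FPKM in KO plus WT, 22.7 FPKM and 16.9 RPKM in KO plus mutant, 53.0 FPKM and 39.0 RPKM in Sall4 KO, and 17.5 FPKM and 25.3 RPKM in Sall4 het. The KO libraries lay above the other 5, whereas het and the add-back libraries overlapped. The log2 ratio of KO over het was 1.56 in replicate 1 and 0.55 in replicate 2, at percentiles 98.1 and 84.5. Ratios over KO were -1.38 for KO plus WT and -0.91 and -0.88 for KO plus mutant, at percentiles 7.8, 15.0 and 2.9. KO plus WT over het of replicate 1, added after the values were seen, gave 0.19. KO plus mutant over het, added likewise, gave 0.66 in replicate 1 and -0.41 in replicate 2.

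In the other lines Dusp6 was 2.75 FPKM in DKO and 5.58 FPKM in WT of DKO, a log2 ratio of -0.79, so DKO lay lower, unlike Sall4 KO against het. Sall1 KO had 25.8 FPKM, Sall1 het 26.0 FPKM and TT2 3.38 FPKM. Dusp4 was at 13.9 FPKM in KO plus WT, 11.8 FPKM and 8.59 RPKM in KO plus mutant, 26.9 FPKM and 16.5 RPKM in Sall4 KO, and 16.8 FPKM and 12.5 RPKM in Sall4 het. KO was the higher in each replicate, by a log2 ratio of 0.66 and 0.32, but the lower KO value lay within the het range. It was 0.896 FPKM in DKO, 2.09 FPKM in WT of DKO, 7.49 FPKM in Sall1 KO, 9.39 FPKM in Sall1 het and 1.01 FPKM in TT2.

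The genes whose 7 ratios came nearest to those of Dusp6, among 6261 genes that reached 5 in some library of each pair, were Plk2, Mdm2 and Csrnp1, with a root mean square difference of 0.22, 0.30 and 0.38 on the log2 scale. The median over all genes was 1.04. Plk2 was at 6.82 FPKM in KO plus WT, 10.2 FPKM and 5.81 RPKM in KO plus mutant, 19.1 FPKM and 13.3 RPKM in Sall4 KO and 7.29 FPKM and 9.98 RPKM in Sall4 het. Mdm2 was at 75.1 FPKM and 57.5 RPKM in Sall4 KO and 36.2 FPKM and 46.7 RPKM in Sall4 het. Among the KO plus WT, KO plus mutant, KO and het libraries both were, like Dusp6, highest in KO in each replicate. They were chosen for ratios near those of Dusp6, so this follows largely from the choice. For Fgf4 the nearest were Psph, Pecr and Mthfd2, at 0.27, 0.28 and 0.33, with a median over all genes of 0.88. Psph, the last enzyme of serine synthesis, was at 24.7 FPKM and 26.6 RPKM in Sall4 KO and 39.9 FPKM and 39.8 RPKM in Sall4 het.

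Etv4 and Etv5 encode ETS factors of the PEA3 group. Etv4 was at 8.32 FPKM in KO plus WT, 11.6 FPKM and 21.9 RPKM in KO plus mutant, 19.8 FPKM and 22.0 RPKM in Sall4 KO, and 23.6 FPKM and 22.2 RPKM in Sall4 het. The KO over het ratios were small, -0.23 and -0.07, and the second turned to 0.05 with upper-quartile scaling. KO plus WT was the lowest, with a log2 ratio of -0.94 over KO at percentile 15.5. In the double knockout Etv4 was 0.867 FPKM, against 11.6 FPKM in WT of DKO, a log2 ratio of -2.74 at percentile 0.6 of all genes. Sall1 KO had 19.8 FPKM and Sall1 het 16.6 FPKM. The TT2 table, which is by transcript, gave 130 FPKM summed over 5 transcripts, the highest being 80.1 FPKM.

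Etv5 varied least of the 10 outside TT2, its highest value being 1.4 times its lowest over 10 libraries. It was at 52.3 FPKM in KO plus WT, 60.1 FPKM in KO plus mutant replicate 1, 49.1 FPKM and 53.5 RPKM in Sall4 KO, and 49.7 FPKM and 62.8 RPKM in Sall4 het. It was at 66 FPKM in DKO, 50.6 FPKM in WT of DKO, 65.1 FPKM in Sall1 KO, 68.6 FPKM in Sall1 het and 13.1 FPKM in TT2. No Etv5 ratio in the 6 pairs that list it passed 2-fold, the widest being 0.56 for KO plus mutant over KO of replicate 1. In DKO, where Spry4, Dusp4, Dusp6 and Etv4 were all under 3 FPKM, Etv5 and Spry2 were the highest of the 8 FGF and feedback genes. Spry4 and Dusp4 were under 3 FPKM in WT of DKO as well.

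**Figure D2:**
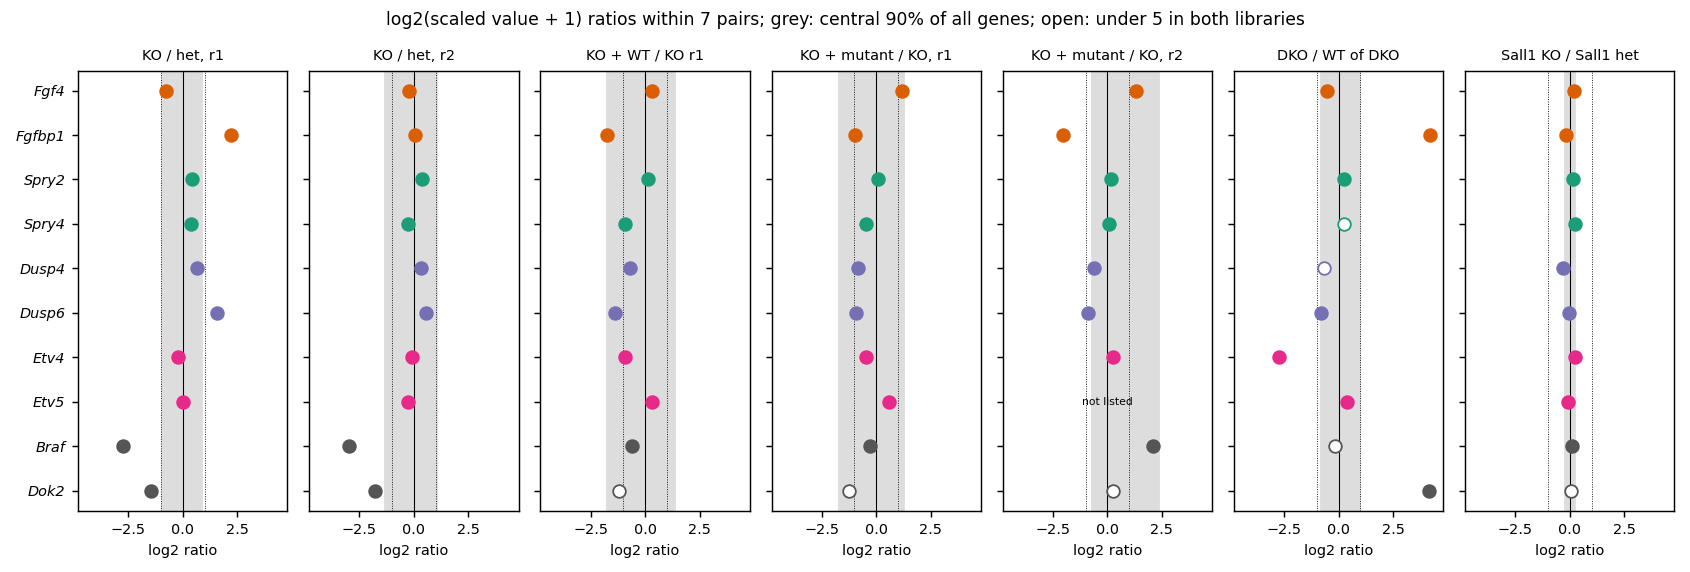
Log2 ratios of scaled values plus 1 for the 10 genes (rows) in 7 pairs of libraries (panels), with the central 90% of all genes in grey, 2-fold as dotted lines and open points for genes under 5 in both libraries. Fgfbp1 and Dok2 lie far to the right and Etv4 to the left in DKO over WT of DKO, and all points lie within 0.30 of 0 in Sall1 KO over Sall1 het.

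Braf encodes a RAF kinase that passes the signal from RAS to MEK. It was at 7.45 FPKM and 8.04 RPKM in Sall4 KO and at 55.4 FPKM and 68.6 RPKM in Sall4 het. Every het value lay above every KO value, with log2 ratios of -2.73 and -3.0, at percentiles 0.9 and 1.1 of all genes. KO plus mutant replicate 2 had 31.0 RPKM, a log2 ratio of 2.09 over KO at percentile 93.4. Its ratio over het of the same replicate, added after the values were seen, was -0.97 at percentile 6.6. In the remaining tables Braf was low, at 3.84 FPKM in KO plus WT, 4.85 FPKM in KO plus mutant replicate 1, 2.95 FPKM in DKO, 3.50 FPKM in WT of DKO, 7.62 FPKM in Sall1 KO, 7.10 FPKM in Sall1 het and 4.10 FPKM in TT2.

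These Braf values do not all rest on the same gene model. In both Sall4 KO tables, both het tables and that of KO plus mutant replicate 2 the Braf entry is given at chr6:39523871-39675462 (mm9), a span of 151.6 kb that carries other entries with the same coordinates, among them Ndufb2 and Adck2. In the others but TT2 it is given at chr6:39553236-39675462, 122.2 kb with no other entry. The high values all came from the wider model, but so did the low values of KO. Ndufb2 on the same span was at 159 RPKM in KO replicate 2 and 147 RPKM in het replicate 2, and the joint Adck2 and Ndufb2 entry at 117 FPKM in KO replicate 1 and 88.6 FPKM in het replicate 1. The weak entries Gm16272 and Fth-ps2 on the span in replicate 1 were lower in KO, as Braf was, Gm16272 at 0.295 FPKM in KO and 0.603 FPKM in het and Fth-ps2 at 2.09 FPKM in KO and 3.06 FPKM in het. The part of the shared span in the Braf values was not tested. The ratios of KO plus WT and KO plus mutant replicate 1 over KO cross the 2 models, and the part of the model in them cannot be told apart from that of the cells.

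Dok2 encodes an adaptor of the DOK family that recruits RasGAP and dampens RAS, best known in blood cells. It was at 4.03 FPKM and 2.69 RPKM in Sall4 KO and at 12.9 FPKM and 11.3 RPKM in Sall4 het, with log2 ratios of -1.45 and -1.78 and no overlap. KO plus WT had 0.966 FPKM, and KO plus mutant had 0.864 FPKM and 2.76 RPKM. In the double knockout the order was the opposite, with 23.1 FPKM in DKO and 0.394 FPKM in WT of DKO, a log2 ratio of 4.13 (17.5-fold on this scale). Sall1 KO had 4.20 FPKM, Sall1 het 3.99 FPKM and TT2 6.49 FPKM.

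Dok2 too has 2 gene models. The same 5 tables give chr14:71054052-71178302 (mm9), shared with Xpo7, and the others chr14:71174187-71178301. Xpo7 was at 7.46 FPKM and 7.70 RPKM in KO and 7.73 FPKM and 6.82 RPKM in het, and so was close in both groups. The other 8 genes lie on spans with no other entry, for example Dusp6 at chr10:98725864-98730122 and Fgf4 at chr7:152047290-152051148 in mm9. Of these, Dusp4 was given 14.6 kb in KO and het of replicate 1, 12.6 kb in the replicate 2 tables and 12.3 kb in the others. Its ratios of KO plus WT and KO plus mutant replicate 1 over KO thus cross models, and the part of this was not tested. For Braf, whose 7 ratios were set against 6261 genes as for Dusp6, H2-Bl, Wfdc2 and Slc7a3 were nearest, at 0.80, 0.83 and 0.93, with a median over all genes of 1.81.

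Counts past 2-fold put these ratios beside those of all genes that reached 5 in either library of the pair. They use contrasts that chose the genes, so nothing is read from them. In KO over het of replicate 1, 2 of the 10 were higher (Fgfbp1, Dusp6) and 2 lower (Braf, Dok2), and of 11335 genes 4.07% were higher and 4.51% lower. In replicate 2, none was higher and 2 were lower (Braf, Dok2), and of 11016 genes 5.74% were higher and 7.8% lower. In KO plus WT over KO, 2 of 9 were lower (Fgfbp1, Dusp6) and none higher, beside 14.1% and 8.55% of 8423 genes.

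In KO plus mutant over KO of replicate 1, 1 of 9 was higher (Fgf4) and none lower, beside 7.51% and 13.3% of 8389 genes. In replicate 2, 2 of 8 were higher (Fgf4, Braf) and 1 lower (Fgfbp1), beside 14.5% and 2.06% of 11139 genes. In DKO over WT of DKO, 2 of 7 were higher (Fgfbp1, Dok2) and 1 lower (Etv4), beside 4.83% and 3.67% of 8621 genes. With unscaled values 4 were lower in KO plus WT over KO, and none was higher and 3 were lower in KO plus mutant over KO of replicate 1. Between the library labelled Sall1 KO and Sall1 het none of 9 passed 2-fold in either direction, beside 0.624% higher and 0.722% lower of 8173 genes, and all ratios lay between -0.30 and 0.24. The median over the 6 feedback genes was 0.40 and 0.13 for KO over het, beside 0.00 and -0.04 over all genes, and -0.81 for KO plus WT over KO, beside -0.03. For KO plus mutant over KO it was -0.47 in replicate 1 and 0.09, over 5 genes, in replicate 2, so the replicates had opposite signs. It was -0.28 for DKO over WT of DKO, over 4 genes, and 0.07 for the library labelled Sall1 KO over Sall1 het.

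**Figure D3:**
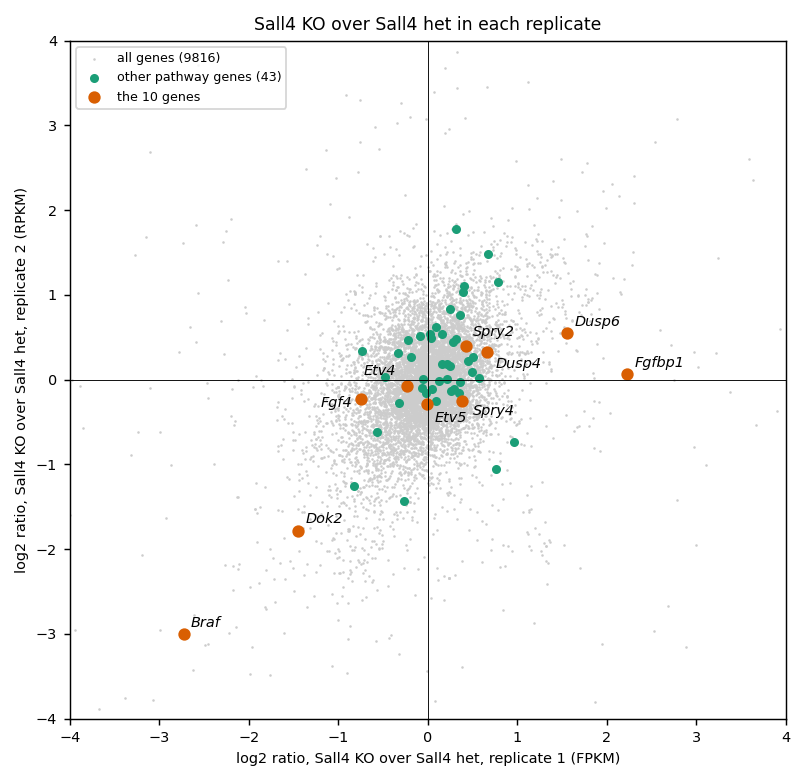
Log2 ratio of Sall4 KO over Sall4 het in replicate 1 (horizontal, FPKM) and replicate 2 (vertical, RPKM) for 9816 genes at 5 or more in both pairs, of which 119 lie outside the axes, with 43 other pathway genes in green and the 10 genes in orange. Braf and Dok2 are low on both axes, Dusp6 is at 1.56 and 0.55, and Fgfbp1 is at 2.23 on the horizontal axis and near 0 on the vertical one.

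The control libraries also differed from each other. WT of DKO and Sall1 het, which has 1 null Sall1 allele, are both labelled C57BL/6J and measured in the same unit and annotation, and were set against each other after the values were seen. The part of that allele and the part of the line cannot be told apart. All 6 feedback genes were lower in WT of DKO than in Sall1 het, with a median log2 ratio of -1.12. The ratio was -2.99 for Spry4, -2.05 for Dusp6, -1.76 for Dusp4, -0.49 for Etv4, -0.44 for Etv5 and -0.16 for Spry2. Fgfbp1 had -2.22, and Fgf4 had 0.69. Past 2-fold, 4 of 9 genes were lower and none higher, beside 5.69% and 6.12% of 8617 genes.

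Other markers moved with this difference between control lines. All 5 epiblast markers, Otx2, Pou3f1, Dnmt3b, Lef1 and Sox3, were more than 2-fold lower in WT of DKO, with a summed level of 17.8 FPKM, against 152 FPKM in Sall1 het. Of 9 fibroblast markers, 7 were at 1 or more in WT of DKO and 8 in Sall1 het, none at 0, and their sum was 219 FPKM in WT of DKO and 76.9 FPKM in Sall1 het; in DKO it was 228 FPKM. Col1a1 and Col1a2 held most of these sums. Col1a1 was at 103 FPKM in DKO, 97.9 FPKM in WT of DKO and 21.6 FPKM in Sall1 het. Thy1, Dcn and Lum went the other way between the control lines. They were at 10.2, 0.932 and 0.399 FPKM in WT of DKO and at 21.1, 2.13 and 0.762 FPKM in Sall1 het. The immediate early gene Egr1, named after its values were seen, was at 85.8 FPKM in DKO, 269 FPKM in WT of DKO, 74.0 FPKM in Sall1 KO and 85.0 FPKM in Sall1 het, and between 2.99 and 10.2 FPKM or RPKM in the KO plus WT, KO plus mutant, KO and het libraries. The part of other cells in the feedback gene values was not tested.

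In the Sall4 libraries the summed primitive endoderm markers were at 57.3 FPKM and 36.4 RPKM in KO and 30.4 FPKM and 19.6 RPKM in het. FGF signalling specifies that lineage in the mouse embryo. In KO, 5 of 9 listed markers were at 1 or more in replicate 1 and 4 of 7 in replicate 2, and in het 3 of 9 and 3 of 7, with none at 0. Gata6, a defining factor, was at 1.28 FPKM and 0.607 RPKM in KO and 0.641 FPKM and 0.180 RPKM in het. Col4a1 and Lamb1, matrix genes made by other cells as well, held most of the sums. Their part in the Dusp6 values was not tested.

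The rest of the pathway was read from 85 genes listed by role, of which 66 could be tested. The test was limma on log2 of scaled values plus 1 in the 6 libraries of KO plus mutant, KO and het, with replicate number as a block and Benjamini-Hochberg adjustment over all genes. It called none of 15078 genes between KO and het (0.0%), so none of the 66 changed by this test. Unadjusted p-values below 0.05 numbered 1283, and the smallest adjusted p was 0.237. Of the 66, 44 had a change above 0 and 22 below, with a median of 0.12 beside -0.016 over all genes, and 5 had an unadjusted p below 0.05. Those 5, named after their values were seen, were Spred3, Spred1, Il17rd, Elk3 and Ccnd1. Spred3 was low, at 2.46 FPKM and 3.63 RPKM in KO and 0.991 FPKM and 0.834 RPKM in het.

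Among ligands and receptors, Fgf17 had a log2 change of -1.15 ± 0.47 (SE, n = 2 libraries per group) and Fgfr1, the main receptor for FGF4 in ES cells, of 0.74 ± 0.42. Fgfr1 was at 44.1 FPKM and 36.8 RPKM in KO and 33.3 FPKM and 16 RPKM in het, higher in KO in each replicate. The adaptor Grb2, which links receptors to RAS, was at 29.4 FPKM and 41.1 RPKM in KO and 44.4 FPKM and 61 RPKM in het, with ratios of -0.57 and -0.61. Gab1, a docking protein, was at 44.5 FPKM and 61.8 RPKM in KO and 36.8 FPKM and 43.6 RPKM in het. Adjusted p in limma was 0.606 for Fgf17, 0.705 for Fgfr1, 0.647 for Grb2 and 0.818 for Gab1.

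The 11 genes of the RAS, RAF, MEK and ERK core were at 6 above and 5 below 0, with a median of 0.08. The estimates ran from -0.33 ± 0.29 for Ksr1, a scaffold of the cascade, to 0.20 ± 0.26 for Mapk3, which encodes ERK1 (SE, n = 2 libraries per group), and Araf, which encodes a RAF kinase, stood at 0.15 ± 0.23. Among 12 other inhibitors of the pathway, 10 were above 0, with a median of 0.29 beside -0.016 over all genes. The share of all genes above 0 was not counted. Dusp7, Rasa2 and Spred2 were near 0, at 0.01, 0.02 and 0.03. Dusp5 and Nf1 were below 0, at -0.67 ± 0.375 and -0.48 ± 0.21 (SE, n = 2 libraries per group). Spred1, a relative of the Sprouty proteins that suppresses activation of RAF, was at 15.4 FPKM and 19.0 RPKM in KO and 8.59 FPKM and 7.66 RPKM in het, with an estimate of 0.95 ± 0.30 on the log2 scale (SE, n = 2 libraries per group). Il17rd, a membrane inhibitor of FGF signalling also called Sef, was at 10.4 FPKM and 11.6 RPKM in KO and 7.78 FPKM and 4.92 RPKM in het, a change of 0.69 ± 0.25. Dusp9, a phosphatase of ERK in ES cells, was at 51.0 FPKM and 42.9 RPKM in KO and 41.1 FPKM and 11.4 RPKM in het. Adjusted p in limma was 0.524 for Spred1, 0.565 for Il17rd and 0.617 for Dusp9.

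Among 13 transcription factors and targets 7 were above 0 and 6 below. Ccnd1, the G1 cyclin, was at 13.3 FPKM and 9.47 RPKM in KO and 24.4 FPKM and 23.1 RPKM in het, and the groups did not overlap. Its log2 change was -1.05 ± 0.25 (SE, n = 2 libraries per group), with a limma adjusted p of 0.46. Elk3, an ETS factor regulated by ERK, was at 9.03 FPKM and 7.78 RPKM in KO and 5.34 FPKM and 2.04 RPKM in het, a change of 1.05 ± 0.39 with an adjusted p of 0.573. Spp1, which encodes osteopontin, was at 133 FPKM and 135 RPKM in KO and 167 FPKM and 156 RPKM in het. The ERK-activated kinases had 5 above and 2 below 0, and the heparan sulphate enzymes likewise 5 and 2.

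**Figure D4:**
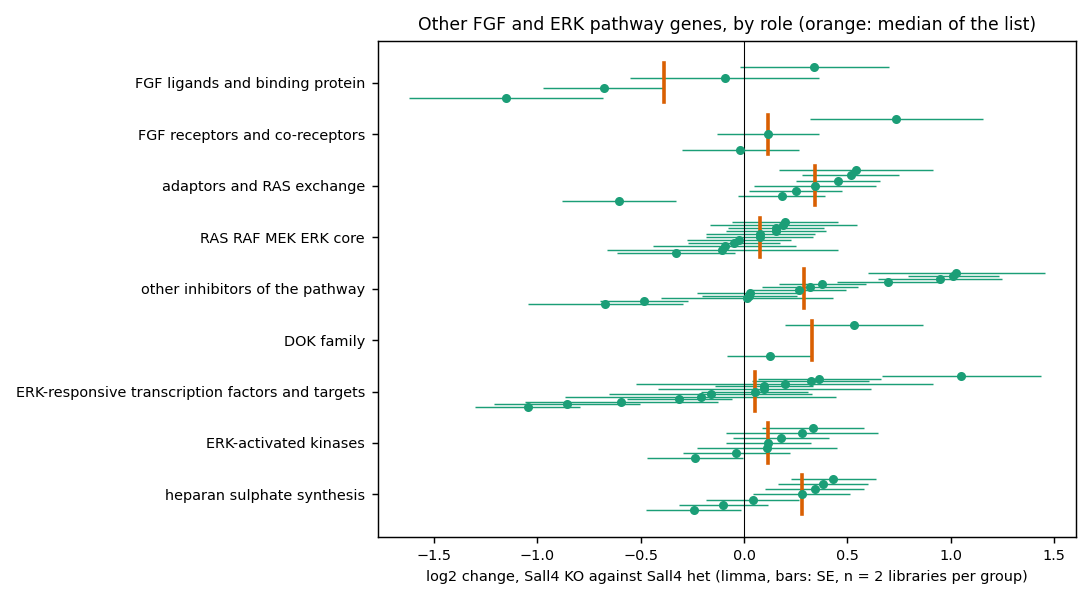
Limma log2 change of Sall4 KO against Sall4 het for 66 pathway genes in rows by role (points, with SE bars, n = 2 libraries per group) and the median of each list (orange). Medians run from -0.39 for the ligands to 0.34 for the adaptors, and no gene passed the adjusted threshold.

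Between KO plus mutant and KO, limma called none of 11632 genes (0.0%), with 1136 at an unadjusted p below 0.05 and a smallest adjusted p of 0.341. Of the 66 pathway genes 19 were above 0 and 47 below, with a median of -0.15 beside -0.02 over all genes. All 11 core genes were below 0, with a median of -0.28, from -0.92 ± 0.55 for Hras1 and -0.83 ± 0.35 for Map2k2 to -0.08 ± 0.24 for Map2k1 (SE, n = 2 libraries per group). Erf, a repressor exported from the nucleus by ERK, Fgf15 and Spred3 had an unadjusted p below 0.05 in limma. Their changes were -0.81, 0.85 and -0.57, with limma adjusted p of 0.448, 0.479 and 0.501. Fgf15 and Spred3 were under 5 in these libraries. Fgf15 was at 1.87 FPKM and 0.982 RPKM in KO plus mutant and 0.602 FPKM and 0.332 RPKM in KO. Spred3 was at 1.23 FPKM and 1.45 RPKM in KO plus mutant and 2.46 FPKM and 3.63 RPKM in KO.

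Between KO plus mutant and het, limma called none of 11632 genes (0.0%), with 1226 at an unadjusted p below 0.05 and a smallest adjusted p of 0.197. The core genes were again all below 0, median -0.22, but 3 of 11 were above 0 with upper-quartile scaling. Erf, Myc, Dusp5 and Dusp9 had an unadjusted p below 0.05 in limma, with changes of -0.71, -1.35, -1.31 and 1.16. Dusp5 was low, at 1.5 FPKM and 0.838 RPKM in KO plus mutant and 3.82 FPKM and 6.42 RPKM in het. Both comparisons use the mutant libraries, so their values are not independent. KO plus mutant replicate 1 was also made on other gene models than KO and het of replicate 1. The replicate block does not take up this difference, and its part in the changes of both comparisons was not tested. KO against het was fitted on the same 6 libraries with 1 shared spread, so the difference also enters its SE and p-values. Leaving out 1 mutant library changed the count of called genes. Without KO plus mutant replicate 2 it was 787 against KO and 677 against het, and without replicate 1 it was 329 and 211.

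In the pairs without replicates, of 48 pathway genes at 5 or more in DKO or WT of DKO, none was 2-fold higher in DKO and 3 were 2-fold lower, beside 4.83% and 3.67% of all genes. Those 3, named after their values were seen, were Fgf17 at 1.59 FPKM in DKO and 10.2 FPKM in WT of DKO, Egr1 at 85.8 FPKM in DKO and 269 FPKM in WT of DKO, and Ccnd1 at 5.17 FPKM in DKO and 12.6 FPKM in WT of DKO. In KO plus WT over KO, 1 of 45 was higher and 9 lower, beside 8.55% and 14.1% of all genes. Between the library labelled Sall1 KO and Sall1 het none of 46 passed 2-fold.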

How the data were processed

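RNA was sequenced in mouse ES cells, and 12 expression tables of 9 groups were used. The deposited FPKM values fill 9 tables and the deposited RPKM values 3, per the file headers, save that the TT2 table, named as RPKM, heads its column FPKM. Per the submitters' processing notes the build was mm9 and the tools of the series were Bowtie 0.12.7, TopHat, SAMtools and MACS 1.4.2; which of them made these tables, and the RNA protocol, are not given in the sources used here. Gene models differ between tables. TT2 gene identifiers were matched to RefSeq symbols (99.3% of 21689). Genes and lists were chosen with earlier results of these data known.

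Rows of a symbol were summed. For pair ratios the libraries were scaled to a median ratio of 1 over genes reaching 1 in both, a pseudocount of 1 was added, and genes reaching 5 in either library were counted against a limit of 2-fold, with no test. The fit used limma 3.58.1 (eBayes with trend, run in R 4.3.3), two-sided, on genes reaching 1 in 2 or more of 6 libraries, with the replicate number as a block because replicates 1 and 2 differ in unit, gene models and strain label. KO plus mutant replicate 1 has other gene models than KO and het of replicate 1, a difference that the block does not take up. The 3 comparisons share 1 estimate of the spread, so this also enters the SE and p-values of KO against het. Genes that the mutant tables do not list were kept in KO against het. Adjustment followed Benjamini and Hochberg, at 0.05, in each of 3 comparisons. With the block, p-values measure how far differences between groups disagree between replicates 1 and 2. Those replicates differ in unit, gene models and strain label, and part of the spread may be technical. Tested on simulated data for KO against het, with 11409 genes, limma called 24 of 50 genes changed 2-fold, 50 of 50 changed 4-fold and 4 of 11210 unchanged. The simulation gave all genes one common spread, the median over genes. It therefore does not give the share that would be called among real genes, whose spreads are unequal. Named genes are the 10, up to 3 per pathway list with the largest ratio of the same sign in both replicates of KO over het, and the 3 nearest in ratio to Dusp6, Fgf4 and Braf. Other pathway genes named in the text, such as those at an unadjusted p below 0.05 or at the ends of a range, were chosen after their values were seen, as were Egr1 and single marker genes. The CCAAT and TATA letters were added after the upstream windows were seen, and 5 further pairs after the values were seen. Other steps ran in Python 3.11.15 with numpy 2.4.6, pandas 2.3.3 and, for plots, matplotlib 3.10.9.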

Additional observations from a re-analysis of the deposited data

How the results depend on the processing

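Counts of genes called by limma were 0 in the 3 comparisons and stayed 0 unscaled and without the filter on low values. With upper-quartile scaling KO against het had 2 calls and KO plus mutant against het 1, and a pseudocount of 0.1 gave 1 in the last. Leaving out 1 library gave 0 for KO against het, between 0 and 787 for KO plus mutant against KO, and between 0 and 677 for KO plus mutant against het. The counts above 0 came without a mutant library, which leaves that group with 1 library assumed to vary like the others, and the cause was not tested. For the pathway genes these ranges were 0 to 0, 0 to 2 and 0 to 1.

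Same-numbered libraries deviated together in het and KO (r = 0.633 over 9850 genes) but hardly in het and KO plus mutant (0.08) or KO and KO plus mutant (0.096). Het and KO libraries of one number share unit, gene models and strain label, but nothing in the labels makes the number a shared culture. Without the replicate block the count of calls was 0 in all 3 comparisons and in the pathway genes, with 890, 961 and 1029 unadjusted p-values below 0.05.

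Unscaled, the median of all genes was -0.25, -0.31 and -0.28 in KO plus WT over KO and in KO plus mutant over KO of replicates 1 and 2, against -0.03, -0.05 and -0.0028 scaled. There, unscaled, 4 genes were 2-fold lower in KO plus WT (2 when scaled). In KO plus mutant replicate 1 unscaled counts were 0 higher (1) and 3 lower (0), and a pseudocount of 0.1 gave 1 lower. In replicate 2, 2 were lower unscaled and 2 with upper-quartile scaling (1). Taking the highest row of a symbol moved none of the 69 ratios. Of all alternatives 9 turned a ratio's sign, in Spry2, Spry4, Etv4 and Etv5, each from a ratio within 0.28 of 0. The depth is unknown, which limits low values such as Spry4 in DKO.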
